A study of Mus musculus with 157 samples.

Results

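The 10 genes described here were Ltf, Lcn2, Ngp, Camp, S100a8, S100a9, Retnlg, Mmp8, Mmp9 and Lrg1, which are made late in neutrophil maturation. They were chosen by gene symbol, and all 10 were found among the 36102 symbols of the count tables. The study measured RNA and N6-methyladenosine (m6A), a methyl mark on adenosines in RNA, in mouse haematopoietic cell types. Across 157 samples it held input RNA, RNA precipitated with an antibody against m6A (IP), and SLAM-seq, in which newly made RNA is labelled with 4-thiouridine and read as T-to-C changes.

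The libraries fell into 4 sets. The wild-type atlas had 2 input and 2 IP libraries in each of 16 cell types, named as in the labels: Neutrophil, Monocyte, CD8, CD4, B_cell, DC, Erythroid, the progenitors GMP, CMP, MEP, MkP, CLP, LMPP and MPP, and the stem cells LT.HSC and ST.HSC. The Mettl3 set had Mettl3 -/- and wild-type libraries, 14 inputs and 14 IPs of each genotype, 2 for each of 7 types (CMP, GMP, LT.HSC, MEP, MPP, MkP and ST.HSC). Mettl3 is the methyltransferase that writes most m6A in messenger RNA. The Igf2bp2 set had 2 Igf2bp2 -/- and 2 wild-type libraries of LT.HSC, and Igf2bp2 is a protein that binds m6A-marked RNA. SLAM-seq covered 12 wild-type libraries of 6 types after 3 h of labelling, and LT.HSC and MkP at 7 chase times after 24 h of labelling. The labels give no age, sex, driver line, deleted exon or animal of origin, so the tests reflect the spread among these libraries, which may be only technical.

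Neutrophils store antimicrobial proteins in granules that form in sequence. Primary granules, with myeloperoxidase and elastase, form first in promyelocytes, and the secondary and tertiary granules form later, with the transcription factor C/EBP-epsilon needed for the secondary ones. Ltf encodes lactoferrin, which binds iron, and Lcn2 encodes lipocalin 2, which binds bacterial iron carriers. Camp encodes the precursor of the cathelicidin peptide, and Ngp encodes a granule protein related to cystatins and cathelicidins. S100a8 and S100a9 encode the calgranulins, which pair to form calprotectin, a cytosolic protein that binds calcium and zinc. Mmp8 is the neutrophil collagenase and Mmp9 the gelatinase of tertiary granules. Retnlg encodes a secreted resistin-like protein, and Lrg1 a secreted leucine-rich glycoprotein that acts on TGF-beta signalling.

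The genes lie on 5 chromosomes. Ltf, Ngp, Camp and Mmp8 are on chromosome 9, S100a8 and S100a9 on chromosome 3, Lcn2 and Mmp9 on chromosome 2, Retnlg on chromosome 16 and Lrg1 on chromosome 17 (RefSeq, GRCm38.p6). The 250 bases before the start of 4 of them are shown as examples. Each of these 4 windows holds a match to the motifs described next, while those of Camp and Lrg1, not shown, hold no match. Capitals mark matches to 3 motifs: TTGCNNAA, a form of the sequence bound by C/EBP factors, and GAGGAA, the core of PU.1 sites, each on either strand, and the TATA box TATAAA on the gene's strand. The sequences are from RefSeq, GRCm38.p6, 5′ to 3′ on the gene's strand.
Ngp, chr9:110419558-110419807, plus strand: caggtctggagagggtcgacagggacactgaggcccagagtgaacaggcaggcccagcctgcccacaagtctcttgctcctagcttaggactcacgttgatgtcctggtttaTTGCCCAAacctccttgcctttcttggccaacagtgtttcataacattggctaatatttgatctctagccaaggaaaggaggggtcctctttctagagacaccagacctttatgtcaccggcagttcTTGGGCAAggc
Ltf, chr9:111019042-111019291, plus strand: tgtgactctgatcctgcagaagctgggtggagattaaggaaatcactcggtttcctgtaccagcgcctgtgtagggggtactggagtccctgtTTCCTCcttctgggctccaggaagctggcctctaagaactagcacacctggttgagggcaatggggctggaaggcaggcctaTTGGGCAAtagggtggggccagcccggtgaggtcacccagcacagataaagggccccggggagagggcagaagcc
S100a8, chr3:90668821-90669070, plus strand: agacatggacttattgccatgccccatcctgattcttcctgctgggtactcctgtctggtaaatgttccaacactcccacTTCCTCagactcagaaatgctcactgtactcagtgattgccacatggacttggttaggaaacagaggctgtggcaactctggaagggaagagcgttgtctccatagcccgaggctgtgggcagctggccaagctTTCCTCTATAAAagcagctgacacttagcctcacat
S100a9, chr3:90695722-90695971, minus strand: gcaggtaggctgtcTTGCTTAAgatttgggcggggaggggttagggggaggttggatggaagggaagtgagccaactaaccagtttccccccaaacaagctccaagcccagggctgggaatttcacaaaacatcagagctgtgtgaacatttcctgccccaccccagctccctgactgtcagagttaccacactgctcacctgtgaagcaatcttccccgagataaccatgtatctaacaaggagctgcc
Ngp held 2 matches to TTGCNNAA, Ltf 1 match to it and 1 to GAGGAA, S100a9 1 match to TTGCNNAA, and S100a8 2 matches to GAGGAA, the second directly before its TATAAA. No motif overlapped another in these 4 windows. Of the 9 members with a promoter in the table, 6 held TTGCNNAA, against 9.57% of 32536 promoters of the same length. GAGGAA was in 4 of the 9, against 23.4% of all promoters, and TATAAA in 1 of the 9, against 7.55%. These matches describe the letters only.

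Library totals were 8225437 to 21530672 reads for the atlas inputs, 10759773 to 24623517 for the atlas IPs, 3420411 to 20229330 for the Mettl3 inputs, 818993 to 22918461 for the Mettl3 IPs and 4681219 to 19984167 for the Igf2bp2 set. Deposited input values are reads divided by a size factor per library, so a read counted for 1.25 and 1.45 in the Neutrophil libraries, against 7.97 and 11.6 in the Monocyte libraries. Shares of the library's reads are therefore given beside them. The libraries labelled Monocyte carried neutrophil markers. Ly6g held 0.0834% and 0.0879% of reads in Neutrophil, against 0.0819% and 0.0732% in Monocyte. The chemokine receptor Cxcr2 held 0.0447% and 0.0490% in Neutrophil, against 0.139% and 0.115% in Monocyte. Cd177 held 0.213% and 0.240% in Neutrophil, against a lower 0.170% and 0.126% in Monocyte. On the deposited scale Itgb2l differed by -0.08 (Neutrophil minus Monocyte) and Mmp25 by 0.39, and neither passed (limma). The monocyte receptor Csf1r held 0.00327% and 0.00252% in Neutrophil, against 0.000910% and 0.000479% in Monocyte, while on the deposited scale it differed by only -0.12. The whole list of 7 monocyte markers summed to 0.337% and 0.332% of reads in Neutrophil, against 0.317% and 0.279% in Monocyte. On the deposited scale 2 of the 7 were lower in Neutrophil, Ly6c2 with a difference of -2.26 (adjusted p = 0.0020) and Ms4a6c with -1.93 (adjusted p = 0.0023, limma), and the other 5 did not pass. Markers of both kinds were present under both labels, and the libraries are called by their label only.

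In the wild-type atlas the 10 genes together took 11.3% and 11.6% of the Neutrophil input reads. Monocyte libraries were higher still, at 26.3% and 25.8%. CD8 was the third, with 3.11% and 1.79%, then LMPP with 1.31% and 0.493%. Both leading types stood apart from each other and from CD8, with no overlap.

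CD4 libraries followed at 0.291% and 0.464%, MkP at 0.190% and 0.434%, and CLP at 0.432% and 0.117%. These neighbours overlapped. DC, B_cell and Erythroid libraries lay between 0.0458% and 0.102%, with B_cell and Erythroid overlapping. LT.HSC had 0.0194% and 0.0322%, and ST.HSC 0.0186% and 0.0177%. The other types were progenitors and lay lower.

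MPP had 0.0147% and 0.00531% of reads in the 10 genes, and its range overlapped that of GMP. GMP, the progenitor that gives rise to neutrophils, had 0.00527% and 0.00535%. CMP had 0.00132% and 0.00158%, and MEP 0.000457% and 0.000302%. In the first MEP library the 95% Wilson interval of the share, which covers counting error only, was 0.000374% to 0.000559%. Bulk RNA cannot tell fewer cells with these transcripts from less of the RNA in each cell.

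**Figure D1:**
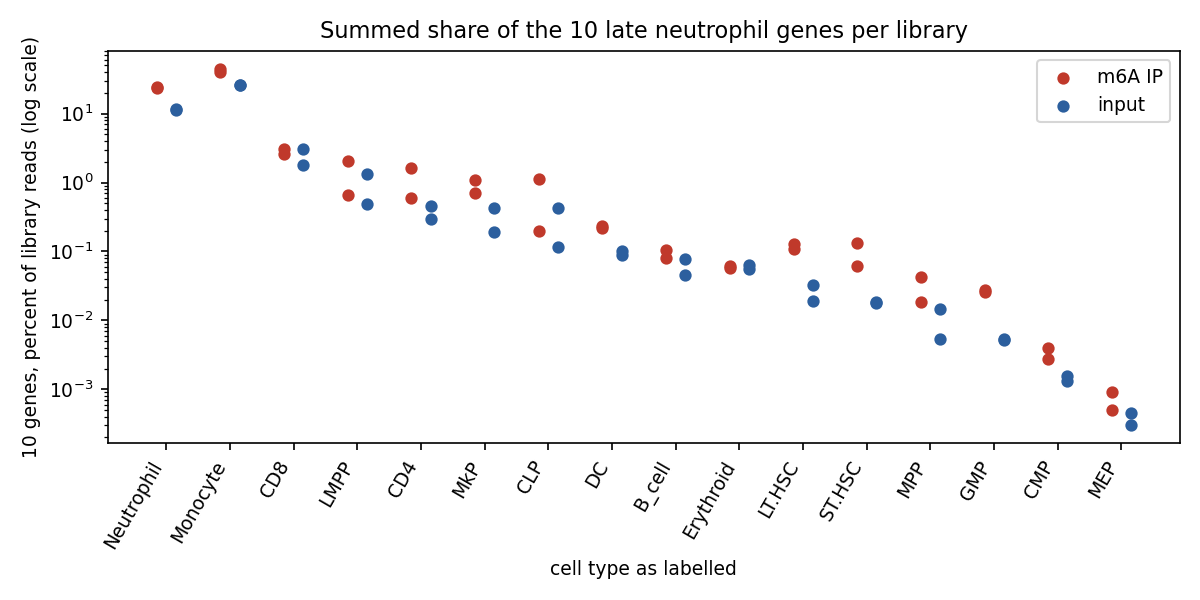
Share of reads in the 10 genes (percent, log scale) in the 16 atlas types, with a point for each of the 2 m6A IP libraries and each of the 2 input libraries of a type. In the input, Neutrophil libraries lie at 11.3% and 11.6%, below Monocyte and above CD8, and MEP lies lowest.

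The order was nearly the same gene by gene. Monocyte led for 7 genes, and Neutrophil led for Mmp8, Mmp9 and Lrg1 on the share of reads. CD8 was the third of the 16 types for all 10 genes. MEP was lowest for 9 and CMP for Mmp9.

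CD8 libraries also carried Ly6g, at 708 and 813, and the T cell receptor gene Cd3e, at 1602 and 1613. Cd8a, which marks the labelled cells, stood at 80.3 and 30.9 there. The part that other cells had in the CD8 values was not tested.

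Among the iron-binding and antimicrobial genes, Ltf stood at 316967 and 375653 in Neutrophil, against 17284 and 8951 in CD8, and at 10.6 and 0 in GMP, 0 and 3.87 in CMP, and 0 and 1.58 in MEP. Lactoferrin RNA was at or near 0 in 3 progenitor types. Ngp stood at 479544 and 526486 in Neutrophil and at 66.5 and 18.0 in GMP, and Camp at 229152 and 226968 in Neutrophil and at 22.7 and 16.0 in GMP. Lcn2 stood at 162458 and 176891 in Neutrophil, 298 and 193 in GMP, and 24.9 and 15.5 in CMP, with no overlap between GMP and CMP.

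Both calgranulins had reads in every atlas input library. S100a8 stood at 462053 and 504979 in Neutrophil, 165315 and 77019 in CD8, 591 and 292 in GMP, 55.7 and 21.9 in CMP, and 23.4 and 10.5 in MEP. S100a9 stood at 233566 and 229844 in Neutrophil, 51.3 and 22.0 in GMP, and 16.6 and 10.3 in CMP. Both were lowest in MEP. S100a8 in CD8 reached a share of 1.41% and 0.676%, against 2.30% and 2.39% in Neutrophil.

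Of the proteases, Mmp8 stood at 111148 and 133051 in Neutrophil, 64.9 and 74.1 in GMP, and 43.2 and 68.3 in CMP, so the collagenase overlapped between GMP and CMP. Mmp9 stood at 46704 and 52857 in Neutrophil and at 1.51 and 3.00 in GMP. Of the secreted proteins, Retnlg stood at 161350 and 154447 in Neutrophil and at 4.53 and 4.01 in GMP, and was at 0 in both MEP libraries. Lrg1 stood at 59144 and 62001 in Neutrophil, 208 and 121 in GMP, 1.66 and 1.29 in CMP, and 0 in both MEP libraries.

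**Figure D2:**
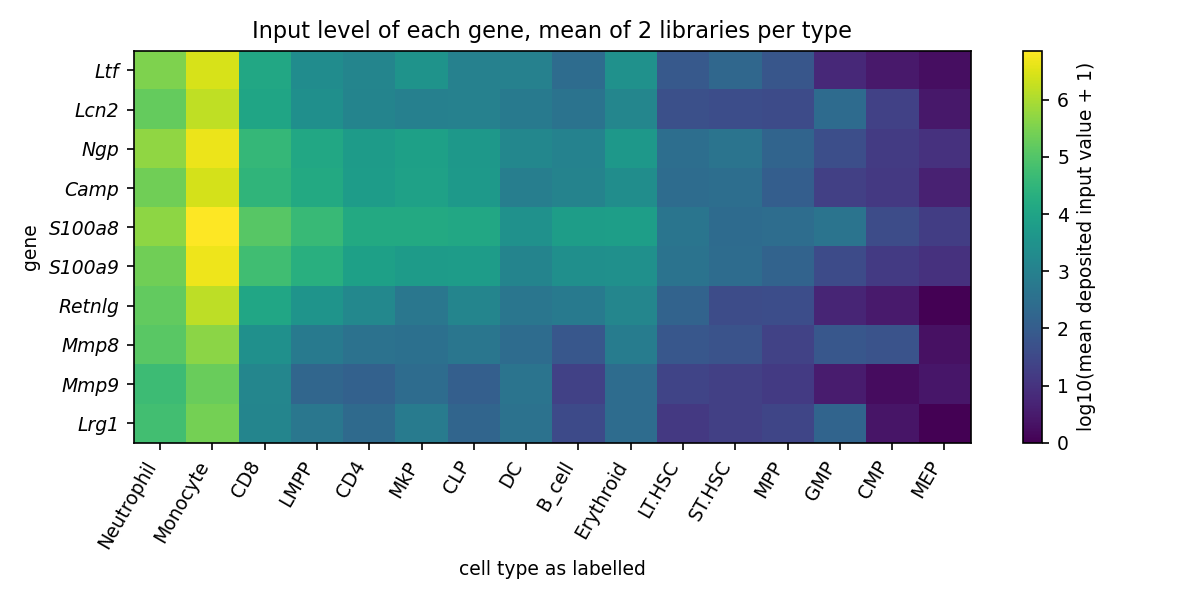
Mean input level of each gene in each of the 16 types, as log10 of the mean deposited value of 2 libraries plus 1. Neutrophil and Monocyte are brightest in every row, CD8 is next, and Lcn2, S100a8 and Lrg1 are brighter in GMP than in CMP.

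All 10 genes were higher in Neutrophil than in the mean of the other 15 types (limma on log2 of the deposited value plus 1, Benjamini-Hochberg adjusted over 17165 genes), where 20.4% of all genes tested were called higher. The differences ran from 7.25 ± 0.59 (S100a8, log2 ± SE, adjusted p = 2.4e-09) to 9.72 ± 0.72 (Ltf, adjusted p = 2.2e-09), with a median of 8.78 against -0.23 over all genes. With each library scaled to its total the median over the members was 8.27 and that over all genes -0.70. All 15 of the 15 other late neutrophil genes, such as Cd177 and the formyl peptide receptor Fpr1, were also higher, with a median of 7.04.

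Regulators of granulopoiesis were called higher in 7 of 8 cases. Cebpe, which encodes C/EBP-epsilon, was higher by 7.24 ± 0.39 (adjusted p = 6.3e-13) and Cebpd by 5.98 ± 0.47 (adjusted p = 6.0e-10), while Cebpb at 1.97 ± 1.00 did not pass (adjusted p = 0.12, limma). Among 7 measured receptors and inhibitors of the members' products, 3 were higher and 3 lower. Tlr4, a receptor for calprotectin, was higher by 2.22 ± 0.66, Ager, the receptor for advanced glycation end products, by 1.83 ± 0.62, and the metalloproteinase inhibitor Timp2 by 3.72 ± 0.44. Slc22a17, a receptor for lipocalin 2, was lower, with a difference of -2.77 ± 0.55. Timp3 at -2.13 ± 0.76 and the TGF-beta co-receptor Eng at -2.59 ± 0.34 were lower too.

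Against Monocyte 6 of the 10 were lower in Neutrophil on the deposited scale (Ltf, Ngp, Camp, S100a8, S100a9 and Retnlg), where 11.0% of all genes were called lower. S100a9 differed most, by -4.31 ± 0.67 (adjusted p = 1.3e-04, limma). Lcn2 (-3.21), Mmp8 (-1.89), Mmp9 (-1.91) and Lrg1 (-2.10) did not pass, with adjusted p of 0.071, 0.091, 0.27 and 0.11. Ltf lost the call whichever of the 4 libraries was left out, which left 5. On library-total scaling the median of all genes moved to 1.81, against 0.01 on the authors' scaling, and only S100a9 passed, where 1.14% of all genes were called lower.

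The share of reads gave a split picture. S100a9 in Neutrophil was at 0.238 times its Monocyte share, S100a8 at 0.321 times and Camp at 0.414 times. Lcn2, Retnlg, Ngp and Ltf lay between 0.511 and 0.612 times. Mmp8 at 1.27 times, Mmp9 at 1.25 times and Lrg1 at 1.10 times were higher in Neutrophil. Within each gene the 2 Neutrophil and the 2 Monocyte shares did not overlap, and these ratios carry no test. Over all genes tested, 71.9% had both Neutrophil shares above both Monocyte shares and 3.7% had both below, so the 3 higher members lay on the side of most genes and the 7 lower members did not. As a proportion of the reads of the 10 genes, S100a9 took 10.3% and 9.41% in Neutrophil, against 18.7% and 17.7% in Monocyte, and Mmp8 took 4.91% and 5.45% in Neutrophil, against 1.70% and 1.88% in Monocyte.

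Monocyte libraries set against the 14 types other than Neutrophil had all 10 genes higher, by a median of 12.32, where 25.3% of all genes were called higher (limma).

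Against GMP all 10 genes were higher in Neutrophil, where 20.5% of all genes were called higher. The differences ran from 8.56 ± 0.92 for Lrg1 (adjusted p = 2.9e-07) to 16.63 ± 0.99 for Ltf (adjusted p = 2.1e-10, limma). A fold against GMP for genes at or near 0 there depends on the added 1. Primary granule genes went the other way in 6 of 8 cases, with Mpo, myeloperoxidase, lower by a difference of -5.03 ± 0.61 and Elane, elastase, of -4.18 ± 0.68. Fcnb, a ficolin, was higher by 5.67 ± 0.92.

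GMP was next compared with CMP. LT.HSC, ST.HSC and LMPP held larger shares of reads in the 10 genes than GMP, so this comparison cannot show where the genes first appear. Of the 10, 2 passed, where 1.54% of all genes were called higher. Lrg1 was higher in GMP by 6.02 ± 0.92 (adjusted p = 2.1e-04) and S100a8 by 3.53 ± 0.81 (adjusted p = 0.010, limma). Lcn2 differed by 3.54 ± 1.22 and did not pass (adjusted p = 0.12). S100a8 lost the call without the second CMP library (adjusted p = 0.17) or the first GMP library (adjusted p = 0.16), while Lrg1 passed whichever of the 4 was left out. In the same comparison 7 of 8 primary granule genes were higher, Elane by 4.79 ± 0.68, and Cebpe was higher by 4.98 ± 0.54.

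Across the 28 input libraries outside Neutrophil and Monocyte, the 45 pairs of members had a median Pearson r of 0.872 (range 0.747 to 0.993) on the log2 scale. Their summed level had r = 0.946 with Ly6g, 0.974 with Chil3 and 0.00256 with Mpo. These are descriptions over libraries that share a scaling, with 2 libraries per type. Over the 16 type means, the genes whose profile was most like the members' mean profile, among 12778 others, were Chil3 (r = 0.994), Ly6g (0.987), Chil1 (0.973), Stfa2l1 (0.973), Wfdc21 (0.972), Ceacam10 (0.972), Cd177 (0.967), Fpr2 (0.961), Lilrb4a (0.959) and Il1f9 (0.959). Chil3, Stfa2l1, Ceacam10 and Lilrb4a have close copies in the genome, so their reads may be split between them. S100a9 and Ngp themselves had r of 0.985 and 0.994 with that mean profile, and Lrg1 was the lowest member at 0.962. Each member is part of that mean, which raises its own r.

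The m6A precipitation split the members into groups. S100a8 held 10.9% and 10.9% of the IP reads in Neutrophil, against 2.30% and 2.39% of the input reads. S100a9 held 4.08% and 4.00% of IP, against 1.16% and 1.09% of input, and Retnlg 1.97% and 1.88% of IP, against 0.804% and 0.732% of input. Camp held 2.23% and 2.21% of IP, against 1.14% and 1.08% of input. Each of these 4 genes was higher in both IP libraries than in both inputs. In Neutrophil the log2 ratio of mean IP to mean input share lay above 0 for 55.0% of all genes. Among all genes S100a8 lay at percentile 97.6, S100a9 at 93.6, Retnlg at 83.2 and Camp at 74.6. Lcn2 at percentile 61.1 and Ngp at 49.3 also had ratios above 0.

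Ltf showed the opposite order, with 0.476% and 0.398% of IP reads, against 1.58% and 1.78% of input reads in Neutrophil. Lrg1 held 0.0699% and 0.0640% of IP, against 0.295% and 0.294% of input. Mmp9 held 0.0884% and 0.0933% of IP, against 0.233% and 0.251% of input, and Mmp8 0.331% and 0.325% of IP, against 0.554% and 0.631% of input. All 4 were lower in both IP libraries than in both inputs. Among the ratios of all genes in Neutrophil, Ltf lay at percentile 3.24, Lrg1 at 2.09, Mmp9 at 10.1 and Mmp8 at 21.6. Together the 10 genes took 24.3% and 23.6% of Neutrophil IP reads and 40.0% and 45.0% of Monocyte IP reads.

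The ratio of IP to input share was then taken in every type with at least 10 reads in all 4 libraries. The IP share of S100a8 lay above its input share in 16 of 16 types (median log2 ratio 2.11) and that of S100a9 in 15 of 15 (1.72). Lcn2 was above in 11 of 14, Camp in 11 of 15 and Retnlg in 10 of 13, while Ngp was above in 6 of 15. Ltf was above in 1 of 12 (median -1.71), Lrg1 in 1 of 11 (-1.71), Mmp9 in 1 of 9 (-1.28) and Mmp8 in 1 of 15 (-0.56). Over all genes the share with a ratio above 0 ran from 28.5% to 84.4% by type. Of 10875 genes measured in at least 9 types, 16.6% were above 0 in every type measured and 10.9% in at most 1 type.

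Set against the other genes of each type, the order was less uniform. The median log2 ratio over all genes was 0.18 in Neutrophil and 1.20 in Monocyte. S100a8 lay above the median gene in 15 of 16 types, with percentiles from 31.2 in B_cell to 99.8 in ST.HSC, 97.6 in Neutrophil and 63.0 in Monocyte. S100a9 lay above it in 13 of 15, from 31.3 in B_cell to 97.5 in CMP, with 93.6 in Neutrophil and 38.8 in Monocyte. Ltf, Mmp8 and Lrg1 lay above it in 0 types. Ltf ran from the percentile 0.0838 in Monocyte to 39.7 in LMPP, with 3.24 in Neutrophil, and Mmp9 lay above the median gene only in CD4, at 89.0. IP over input is a relative yield of this precipitation, and the part that transcript length or abundance had in it was not tested.

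**Figure D3:**
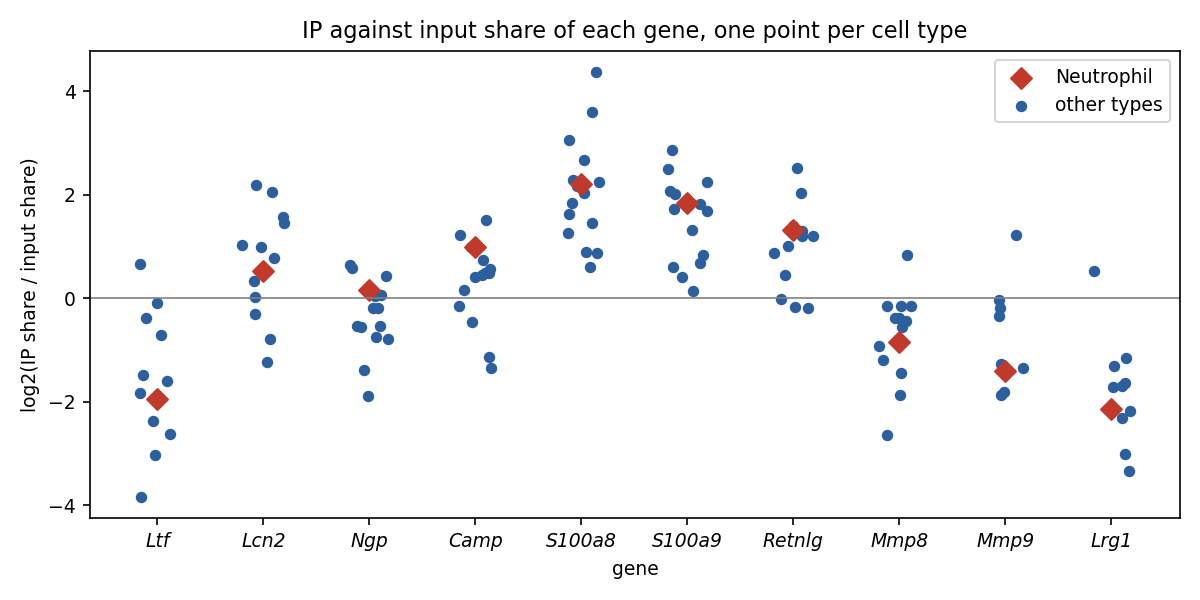
Log2 ratio of the mean IP share to the mean input share, per gene, with a point for each atlas type that had at least 10 reads in all 4 libraries. S100a8 and S100a9 lie above 0 in every type shown, and Ltf, Lrg1, Mmp8 and Mmp9 lie below 0 in all but 1 type each.

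The enrichment, IP minus input on the log2 scale, did not pass for any member between Neutrophil and other types. In Neutrophil against the other 15 types 0 of 10 passed, and 0 had an unadjusted p under 0.05, where 0.0472% of all genes were called (limma). Against GMP 0 of 10 passed, and 0 at the unadjusted p, where 0.0648% were called. Against Monocyte 0 of 10 passed, where 0.324% were called. An unadjusted p under 0.05 was met by 2 there, both higher in Neutrophil, against 4.26% of all genes. These were Ltf with a difference of 3.02 ± 1.46 (adjusted p = 0.47) and S100a9 with 2.15 ± 0.98 (adjusted p = 0.43). A miss of the threshold does not show that the enrichment was alike.

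The Mettl3 set came next, and the targeted gene was read first. Mettl3 stood between 274 and 931 in the 14 inputs labelled Mettl3 -/- (median 489), against 127 to 5370 in the 14 wild-type inputs (median 428). The gene's level did not separate the genotypes. The deleted part of the gene is not given, so reads over the whole gene do not check the label, and each direction below rests on the labels alone.

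Averaged over the 7 types, 6 of the 10 genes were higher in libraries labelled Mettl3 -/- than in wild type, where 7.24% of all genes were called higher (limma, 15030 genes). Lrg1 was higher by 3.45 ± 0.74 (log2 ± SE, adjusted p = 0.0042), Ltf by 3.14 ± 0.95 (0.038), Lcn2 by 2.70 ± 0.81 (0.037), S100a9 by 2.56 ± 0.61 (0.0094), Mmp9 by 2.46 ± 0.74 (0.036) and Ngp by 2.33 ± 0.71 (0.038). Retnlg at 2.24 ± 0.73 (adjusted p = 0.053), Mmp8 at 1.84 ± 0.84 (0.16) and Camp at 1.29 ± 0.74 (0.27) did not pass, nor did S100a8 (adjusted p = 0.20). The median over the 10 genes was 2.40, against -0.06 over all genes. This fit takes the 14 libraries of a genotype as independent, although libraries share a number across types. With 1 mean per genotype and number, 2 against 2, 0 of the 10 passed, where 0.00665% of all genes were called higher.

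Levels in these progenitor and stem cell libraries were low and uneven. The 10 genes summed to between 154 and 37000 (median 1623) in libraries labelled Mettl3 -/-, against 69.5 to 8621 (median 432) in wild type. The ranges overlapped widely. The highest sum, 37000, was the ST.HSC library labelled Mettl3 -/- numbered 1, with 14066 for Ngp and 6288 for Ltf, and the highest wild-type sum was the LT.HSC library numbered 1.

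The sums differed with the replicate number. Among libraries numbered 2, the sum was 14922 in GMP labelled Mettl3 -/-, against 631 in wild type, 9440 in MkP labelled Mettl3 -/- against 261 in wild type, and 4428 in LT.HSC labelled Mettl3 -/- against 162 in wild type. It was higher in libraries labelled Mettl3 -/- in 7 of 7 types there. Among libraries numbered 1 it was higher in 4 of 7, with 1623 in LT.HSC labelled Mettl3 -/- against 8621 in wild type, 436 in CMP labelled Mettl3 -/- against 2919 in wild type, and 680 in MkP labelled Mettl3 -/- against 2398 in wild type. Wild-type libraries numbered 1 had a higher sum than those numbered 2 in all 7 types.

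Gene by gene, 6 of the 10 were higher in libraries labelled Mettl3 -/- in all 7 types among those numbered 2, against 7.54% of all genes. Among libraries numbered 1, 0 of the 10 were, against 1.92% of all genes. In the wild-type libraries alone, 5 of the 10 were higher in those numbered 1 than in those numbered 2 in all 7 types, against 3.27% of all genes. Fitted on libraries numbered 1 alone, 0 of the 10 passed, where 0.0266% of all genes were called higher, and on those numbered 2 alone, 8 did, where 8.15% were. What the number stands for is not given in the labels.

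S100a9 showed the pattern at the level of single libraries. In GMP it stood at 722 and 2294 in libraries labelled Mettl3 -/-, against 51.2 and 23.9 in wild type. In LT.HSC it stood at 140 and 437 when labelled Mettl3 -/-, against 1477 and 34.4 in wild type, so the groups overlapped. Lrg1 stood at 93.3 and 2469 in LT.HSC labelled Mettl3 -/-, against 11.0 and 12.4 in wild type, and at 888 and 1925 in GMP labelled Mettl3 -/-, against 930 and 104 in wild type. S100a8, which did not pass, stood at 74.6 and 107 in CMP labelled Mettl3 -/-, against 2603 and 22.4 in wild type.

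**Figure D4:**
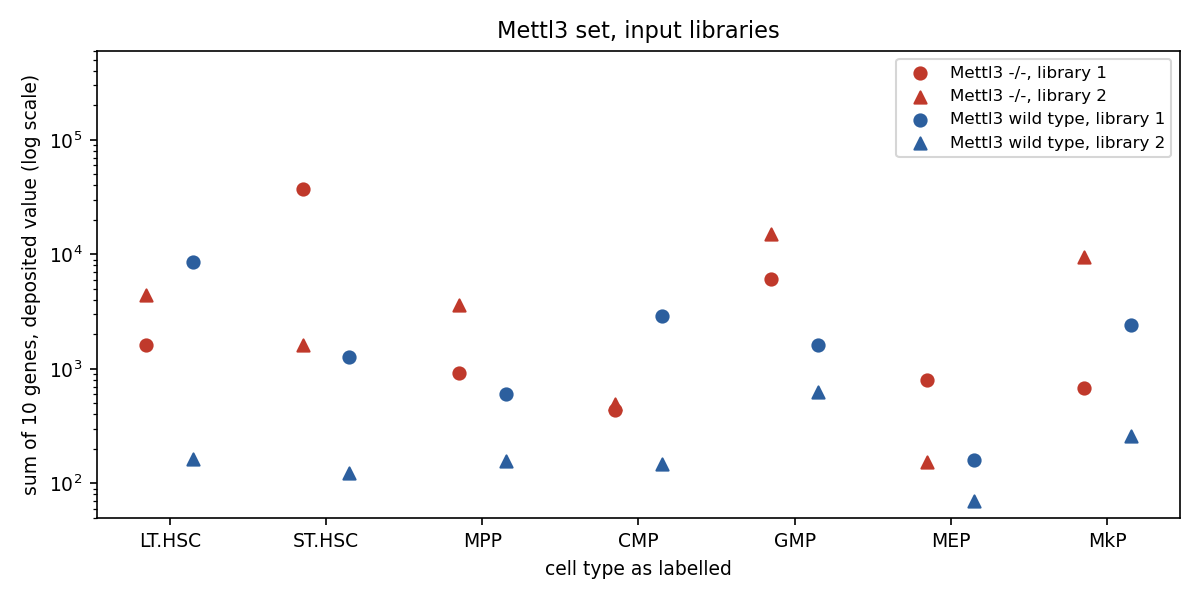
Summed deposited input value of the 10 genes (log scale) in each library of the Mettl3 set, by cell type, with libraries labelled Mettl3 -/- left of wild type and the replicate number given by the marker. In all 7 types the wild-type library numbered 2 lies below the wild-type library numbered 1.

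Within single types 0 of 10 passed in any of the 7 (limma). At an unadjusted p under 0.05 there were 7 in ST.HSC, 2 in GMP, 2 in MkP, 1 in LT.HSC, 1 in MPP, 0 in CMP and 0 in MEP, all higher in libraries labelled Mettl3 -/-. Of all genes, 4.9% were higher at that unadjusted p in ST.HSC, 0.905% in GMP, 6.39% in MkP, 9.61% in LT.HSC, 4.96% in MPP, 1.02% in CMP and 6.95% in MEP. All genes called at the adjusted p, in either direction, were 0.0133% in ST.HSC, 0.0% in GMP, 0.113% in MkP, 0.539% in LT.HSC, 0.0133% in MPP, 0.00665% in CMP and 2.14% in MEP. In the test of whether the difference varied among types, 0 of 10 had an adjusted or unadjusted p under 0.05, where 0.0133% of all genes were called.

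Genes of other lists were also called in the average over types. Among other late neutrophil genes 4 of 13 were higher: Cd177 by 3.11, Chil3 by 2.82, Fpr1 by 1.79 and Padi4, an arginine deiminase, by 1.68. Among primary granule genes 2 of 8 were higher, Ms4a3 by 2.18 and Serpinb1a by 1.06, and among regulators 2 of 8, Cebpd by 2.50 and the G-CSF receptor Csf3r by 1.09. Monocyte markers had 1 of 7 higher (Ms4a6c), B cell markers 1 of 3 (Cd79b), and T cell, erythroid and dendritic cell markers 0 of 5, 0 of 6 and 0 of 5.

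Neutrophil surface markers varied widely among the same libraries, with ranges that overlapped between genotypes. Cd177 ranged from 1.25 to 2389 in libraries labelled Mettl3 -/- (median 49.4), against 0 to 76.9 in wild type (median 7.70). Ly6g was at 0 in 6 of 14 libraries labelled Mettl3 -/- (median 2.11, highest 94.2), against 8 of 14 in wild type (median 0, highest 17.9). Cxcr2 ranged from 41.9 to 210 in libraries labelled Mettl3 -/- (median 81.2), against 5.54 to 165 in wild type (median 37.3). Summed monocyte markers ranged from 171 to 9483 in libraries labelled Mettl3 -/- (median 1769), against 87.5 to 12919 in wild type (median 573), and summed B cell markers from 308 to 1741 in libraries labelled Mettl3 -/- (median 663), against 35.8 to 961 in wild type (median 664). The part these cells had in the difference was not tested.

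In the input average, S100a9 and Lrg1 passed whichever library was left out, and the other 4 called genes did not. Leaving out 1 library left 2 to 7 calls among the 10, and 983 to 2770 over all genes in either direction. They fell to 2 or 3 without the CMP, GMP, LT.HSC, MPP or MkP library numbered 2 or the MEP or ST.HSC library numbered 1 labelled Mettl3 -/-, and without the wild-type CMP, GMP, LT.HSC, MPP, MkP or ST.HSC library numbered 2.

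In the IP counts, 3 of the 10 genes were higher in libraries labelled Mettl3 -/- than in wild type, averaged over types, where 1.07% of all genes were called higher (edgeR's quasi-likelihood test, 17463 genes). Lrg1 was higher by 5.30 (adjusted p = 0.025), Lcn2 by 3.30 (0.011) and S100a9 by 2.12 (0.013). This fit also took the 14 libraries of a genotype as independent, although libraries share a number across types. For the IP counts no fit with 1 mean per genotype and number was run. In GMP the direction for Lrg1 changed with the number, with 99 and 581 counts when labelled Mettl3 -/-, against 896 and 26 in wild type. In the MkP IP libraries Lrg1 had 0 and 680 counts when labelled Mettl3 -/-, against 0 and 0 in wild type. In ST.HSC Lcn2 had 3393 and 213 counts when labelled Mettl3 -/-, against 2 and 440 in wild type.

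In the wild-type ST.HSC and LT.HSC libraries numbered 1, the 10 most abundant genes of each library took 75.8% and 94.2% of all reads. S100a8 held 14.1% and 5.05% of the reads of these libraries. Its averaged difference of -1.05 did not pass (adjusted p = 0.62, edgeR), and was 2.23 without these libraries and the MEP library labelled Mettl3 -/- numbered 1, which held 818993 reads. Without these 3 libraries S100a8 was the only one of the 10 that passed (adjusted p = 0.038, edgeR), where 0.24% of all genes were called higher. Without that MEP library alone 0 passed, where 0.373% of all genes were called higher. Without the CMP library labelled Mettl3 -/- numbered 2 only 1 did, where 0.399% were, and without the wild-type GMP library numbered 1 there were 5, where 0.509% were.

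Set against input in a single fit, the m6A enrichment did not pass for any member between libraries labelled Mettl3 -/- and wild type. There were 0 of 10 at an adjusted or an unadjusted p under 0.05, and 0.0% of all genes were called (limma). The differences ran from -2.27 ± 1.13 for Mmp8 to 0.77 ± 1.15 for Camp, with a median of -0.93, against 0.04 over all genes.

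For the Igf2bp2 set, the targeted gene had 61 and 81 counts in libraries labelled Igf2bp2 -/-, against 142 and 263 in wild type. As shares these were 0.00130% and 0.00125%, against 0.000711% and 0.00535% in wild type. The wild-type library numbered 1, with 19984167 reads, lay below both libraries labelled Igf2bp2 -/- in its share and so went against its label. The deleted part of this gene is not given either, and each direction below rests on the labels.

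The 10 genes together took 0.377% and 0.173% of reads in LT.HSC libraries labelled Igf2bp2 -/-, against 0.0728% and 0.0275% in wild type. Ngp had 8729 and 4137 counts when labelled Igf2bp2 -/-, a share of 0.186% and 0.0637%, against 5472 and 668 counts in wild type, a share of 0.0274% and 0.0136%. Camp held 0.0772% and 0.0312% of reads when labelled Igf2bp2 -/-, against 0.0111% and 0.00258% in wild type, and S100a8 0.0246% and 0.00970%, against 0.00335% and 0.000976% in wild type. For these 3 genes both libraries labelled Igf2bp2 -/- lay above both wild-type libraries.

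For 8 of the 10 genes the shares did not overlap, in that direction, as for 9.73% of all genes tested. Mmp8 held 0.00214% and 0.0139% when labelled Igf2bp2 -/-, against 0.00469% and 0.00236% in wild type, and Mmp9 0.00115% and 0.00465% when so labelled, against 0.00169% and 4.07e-05% in wild type. These 2 overlapped. None of the 10 passed (edgeR's quasi-likelihood test, 12221 genes), where 0.0% of all genes were called in either direction. At an unadjusted p under 0.05 there were 8, with log2 differences of 1.62 to 3.42 and adjusted p of 0.46 to 0.55, where 3.61% of all genes were higher at that unadjusted p. DESeq2 called 5, Ngp, Camp, S100a8, S100a9 and Retnlg, where it called 0.477% of all genes higher.

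**Figure D5:**
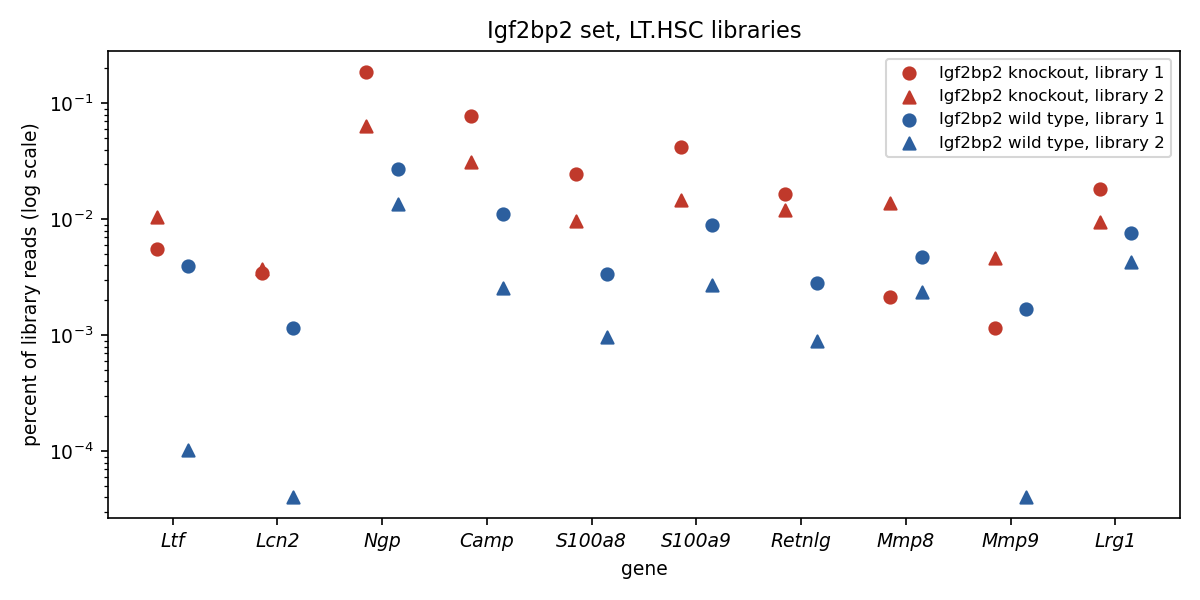
Share of reads (percent, log scale) of each gene in the 4 LT.HSC libraries of the Igf2bp2 set, with libraries labelled Igf2bp2 -/- left of wild type and the library number given by the marker. Ngp, Camp, S100a8, S100a9 and Retnlg show both libraries labelled Igf2bp2 -/- above both wild-type libraries, and Mmp8 and Mmp9 overlap.

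Primary granule genes took 0.376% and 0.0506% of reads in libraries labelled Igf2bp2 -/-, against 0.0248% and 0.0199% in wild type, and their median difference of 3.24 lay beside 2.66 for the 10 genes and 0.01 for all genes. Monocyte markers took 0.0225% and 0.0129% in libraries labelled Igf2bp2 -/-, against 0.0148% and 0.0135% in wild type, and T cell markers 0.00609% and 0.00593%, against 0.00374% and 0.00327% in wild type. Most of the T cell sum was Lck, with a mean share of 0.00586% when labelled Igf2bp2 -/-, against 0.00310% in wild type. The T cell receptor genes had lower means when so labelled. Cd3d held 0.000141%, against 0.000296% in wild type, Cd3g 7.70e-06%, against 8.88e-05%, and Cd3e 0%, against 2.00e-05%. Cd5 was at 0 in both. B cell markers took 0.0168% and 0.0115% in libraries labelled Igf2bp2 -/-, against 0.00567% and 0.00899% in wild type, with no overlap. Cd79a, a part of the B cell receptor, had 130 to 182 counts when labelled Igf2bp2 -/-, against 0 to 2 in wild type (log2 difference 8.70, adjusted p = 0.46, edgeR). Erythroid markers took 0.00493% and 0.00482% in libraries labelled Igf2bp2 -/-, against 0.00472% and 0.00711% in wild type, and dendritic cell markers 0.000577% and 0.00434%, against 0.00483% and 0.00283% in wild type. Both of these lists overlapped. No gene of any of these lists passed, and the part of other cells in the shares was not tested.

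New RNA was read as the T-to-C ratio per gene, in percent, after 3 h of labelling. S100a9 was above 0 in 12 of 12 libraries, between 0.197% and 1.48%, and Ltf in 12 of 12, between 0.0469% and 3.53%. In GMP S100a9 had 0.377% and 0.379%, close between libraries, while Ltf had 3.53% and 0.396% and Mmp9 4.94% and 0.0335%, far apart. Ltf and S100a9 were each above the library's median gene in 6 of 12 libraries. The other 8 members were above it in 0 to 2 of 12, with 0 for Retnlg and Mmp8, and Retnlg was above 0 in 8 of 12.

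In GMP against the mean of the other 5 types, 0 of the 9 members tested passed, and 0 had an unadjusted p under 0.05, where 0.237% of all genes were called (limma). Lrg1 had values above 0 in 5 of 12 libraries and was not tested. Mmp9 had the widest difference, 2.18 ± 1.23 (adjusted p = 0.47).

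The chase values are the authors' deposited averages, with no replicate values, and blanks are points where the authors' deposited table lists no value. The labels give 1 MkP library at each chase time, and replicates only for LT.HSC. In MkP, Lcn2 had 0.889%, 0.547%, 0.351%, 0.366% and 0.0121% at 0.5, 1, 3, 6 and 9 h in the authors' deposited table. S100a9 had 1.05%, 0.300%, 0.642%, 0.124% and 0.0125% at the same times there. For MkP the authors' deposited table also gave S100a9 0.0186% at 12 h and 0.0560% at 24 h, and Lcn2 0.00555% at 24 h. In LT.HSC the authors' deposited table gave S100a8 1.499% at 0.5 h, 0.548% at 1 h, 0.264% at 3 h, 0.341% at 6 h and 0.0353% at 12 h. Each of these 3 series had lower ratios at the late times listed than at 0.5 h, without a test. The median over all genes in the authors' deposited table was also lower late in MkP, but rose and fell in LT.HSC. In MkP it went from 0.0697% at 0.5 h to 0.0157% at 9 h. In LT.HSC the authors' deposited table gave a median of 0.0561% at 0.5 h, 0.161% at 1 h and 0.0276% at 3 h. It stood at 0.0221% at 12 h and 0.0919% at 24 h. Other series were uneven. For S100a8 in MkP the authors' deposited table gave 0.834% at 0.5 h, 0.0199% at 9 h and 0.524% at 12 h, and for S100a9 in LT.HSC it gave 0.0198% at 0.5 h, 0.427% at 1 h and 0.0281% at 12 h. Of the 10 genes, 6 were listed in LT.HSC and 9 in MkP.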

How the data were processed

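Input RNA, m6A-precipitated RNA and SLAM-seq were measured in mouse haematopoietic cells. Of tools and builds, fastp, Trimmomatic, kallisto and GRCm38 appear in the submitters' processing notes, without roles or versions. The authors deposited input values as a normalised signal, reads divided by a size factor per library, from which whole reads were recovered (100% of values whole within 0.1 read). The authors deposited counts for the atlas IP and Igf2bp2 tables, and estimated counts, rounded here, for the Mettl3 IP table. The authors deposited SLAM-seq values as a fraction, multiplied here to percent, whose depth is unknown.

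Inputs and enrichment were tested with limma 3.58.1 on log2(value + 1), for genes at 10 or more in at least 2 libraries, and counts with edgeR 4.0.16 (alternative: DESeq2 1.42.0). For new RNA limma was used on log2(percent + 0.1). Calls have a Benjamini-Hochberg adjusted p under 0.05 over all genes. Enrichment was IP minus input with TMM scaling per table. Sequences are RefSeq's. The members and lists were chosen with earlier results of these data known. All 10 members are named, and other genes come from the lists or from the rank of likeness to the members' profile. The tests were checked on simulated counts, where the Igf2bp2 and atlas enrichment tests recovered the smallest shares of changed genes, so counts of 0 there come from the least sensitive tests. The share that a test had to recover was lowered after the first result of that check, and its random seed was changed once. Python 3.11.15, pandas 2.3.3, NumPy 2.4.6, SciPy 1.17.1 and Matplotlib 3.10.9 were used.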

Additional observations from a re-analysis of the deposited data

How the results depend on the processing

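All 10 members stayed higher in Neutrophil than in the other 15 types, and than in GMP, under every alternative run. Against Monocyte, calls numbered 10 with a pseudocount of 10 and 1 with library-total scaling (added after seeing the data), and 5 to 5 with a library left out. That scaling turned Mmp8 to 0.34, Mmp9 to 0.32 and Lrg1 to 0.14, and in GMP against CMP it turned Camp to -0.12 and Mmp8 to -0.38. GMP against CMP kept 1 to 2 calls with a library left out, where Ltf ran from -1.14 to 2.39. The Mettl3 input average had 2 calls with no filter on low values, 3 with edgeR on recovered reads, 0 with 1 mean per genotype and number, 0 on libraries numbered 1 alone (S100a8 at -0.54) and 2 to 7 with a library left out. In single types edgeR called 1 gene in LT.HSC and 1 in ST.HSC, where leaving out a library gave 0 to 4. Mettl3 IP calls numbered 7 with no filter (6 higher, 1 lower), 7 with DESeq2, 1 without the dominated or small libraries and 0 to 5 with a library left out. In the IP counts Ltf was -0.43 and S100a8 2.23 without those libraries, Mmp8 was 0.11 with DESeq2 and 0.016 with the replicate block, and with a library left out Ltf ran from -0.79 to 1.78, S100a8 from -1.51 to 0.84 and Mmp8 from -0.47 to 0.41. DESeq2 called 5 members in the Igf2bp2 set, and Mmp8 ran from -0.24 to 2.03 there with a library left out. The cause of these changes was not tested. Most member counts in this section stand without the share of all genes called in the same setting. Such a count cannot tell a change in the members from a change in calls over all genes. Pairing by replicate number was not established, since not every pair correlated above 0.1: 2 of 7 knockout and wild-type input pairs did, 10 of 14 Mettl3 IP and input pairs (median 0.202), 5 of 16 atlas IP and input pairs, 16 of 120 atlas input pairs and 0 of 15 new RNA pairs, with the Igf2bp2 pair at 0.011. Libraries of a number still shared differences, as in the wild-type Mettl3 inputs. With the replicate block the Mettl3 input average had 7 calls, or 6 with type and number as pairs, the Mettl3 IP counts 4, GMP against CMP 2, Neutrophil against Monocyte 6 and Igf2bp2 0. Counts of called genes over all genes, with the main count last, ran over the alternatives, other than leaving out a library, from 2033 to 10436 in Neutrophil against Monocyte (3656), 5771 to 13905 in Monocyte against 14 types (9657), 695 to 2074 in GMP against CMP (854), 1 to 2511 in the Mettl3 input average (1522), 119 to 908 in LT.HSC (81), 64 to 384 in MEP (322), 14 to 43 in MkP (17), 2 to 83 in ST.HSC (2), 2 to 24 in MPP (2), 1 to 14 in CMP (1), 0 to 6 in GMP (0), 2 to 28 for the difference among types (2), 52 to 862 in the Mettl3 IP (234) and 0 to 94 in the Igf2bp2 set (0). For enrichment in Neutrophil they ran from 11 to 34 against 15 types (8), 48 to 90 against Monocyte (55) and 13 to 19 against GMP (11), and for new RNA from 1 to 51 (33). Of the called genes, 98.1% were higher in Neutrophil than in Monocyte with library-total scaling and 67.7% with TMM, against 48.4% with the authors' scaling. Library-total scaling gave 25.7% against 47.7% for Neutrophil and the other 15 types, 4.73% against 44.9% for Monocyte (33.2% with TMM) and 5.64% against 30.9% for GMP over CMP, and TMM gave 85.2% against 74.1% for Mettl3 -/- in LT.HSC. Depth limits the progenitor values, where a few reads carry a gene.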
